A study of Homo sapiens with 6 samples.

Results

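Ribosome biogenesis and RNA polymerase I genes were followed as a set of 51 genes of 61498 in the deposited tables, in RNA-seq libraries of 3 human cell lines. The set holds 7 genes of RNA polymerase I (Pol I) transcription, 5 nucleolar scaffold and chaperone genes, 4 core genes each of the box C/D and box H/ACA ribonucleoproteins, 11 of the small subunit processome, 6 of late 40S maturation and 14 of 60S assembly. The members were chosen by function, by their symbols, at a time when their read counts and TPM (transcript abundance per length and depth) in these libraries and their differences between the lines were known. Their counts of calls are therefore a description and no test of the set. RPMI-8226-R is a derivative of RPMI-8226 that is resistant to bortezomib, a proteasome inhibitor. RPMI-8226 is its parent, an established line from multiple myeloma, a cancer of plasma cells. NCI-BL2171 is the third line, and all 3 are labelled as B-lymphocytes without treatment. Each line has 2 libraries, made from total RNA after depletion of ribosomal RNA.

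Ribosome production begins in the nucleolus, where Pol I copies the ribosomal DNA repeats into a long precursor RNA. Small nucleolar ribonucleoproteins methylate and pseudouridylate this RNA, the small subunit processome folds and cuts it, and separate sets of GTPases, helicases and placeholder proteins build the 40S and 60S subunits and take them to the cytoplasm. The transcription factor MYC is known to raise many of these genes, and plasma cells, which secrete antibody in bulk, depend on a large ribosome supply.

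The libraries held 23952370 to 29052199 estimated reads, and each member had between 97 and 31509 reads in every library. All 51 members passed the filter on low counts, as did 20081 genes in all. No label states that the paired libraries are separate cultures. Every p-value thus reflects library-to-library spread alone, and that spread may be technical. The 13 erythroid markers summed to 171.5 to 187 TPM in RPMI-8226-R, 62.0 to 64.9 TPM in RPMI-8226 and 61450 to 64240 TPM in the libraries labelled NCI-BL2171. Of 9 plasma cell markers, 8 reached 1 TPM in both RPMI lines, whereas in the libraries labelled NCI-BL2171 5 were listed at 0 (IRF4, TNFRSF17, JCHAIN, MZB1 and SLAMF7). The B cell markers MS4A1, PAX5, BLK and FCER2 were also listed at 0 in them. These values go against the B-lymphocyte label, and the group is called by its label only. Mitochondrial genes took 7.72% and 6.15% of reads in RPMI-8226-R, 5.10% and 5.26% in RPMI-8226 and 2.93% and 2.44% in the NCI-BL2171-labelled libraries, and the part of this in the differences was not tested.

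The mRNAs of most members stood higher in the bortezomib-resistant cells than in their parent. Summed over the 51 genes, the level was 5161 and 5185 TPM in RPMI-8226-R, 2334 and 2369 TPM in RPMI-8226 and 4043 and 4295 TPM in the NCI-BL2171-labelled libraries. In a quasi-likelihood test of edgeR over all genes, with Benjamini-Hochberg adjusted p under 0.05 as the threshold, 48 of the 51 members were called higher in RPMI-8226-R than in RPMI-8226, against 28.5% of all tested genes. Only POLR1D was called lower, against 37.2% of all tested genes, while FBL and NHP2 missed the threshold. Since the members were chosen with these differences known, nothing is read from these shares. Of the 48, 37 were at least 2-fold and 13 at least 4-fold higher. The median log2 fold change of the members was 1.48, with a range from -0.49 to 2.82, and that of all tested genes was -0.12. In bulk RNA, fewer cells of a type and less RNA per cell cannot be told apart. Without the first RPMI-8226-R library 3 members were called lower, POLR1D, FBL and NHP2.

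**Figure D1:**
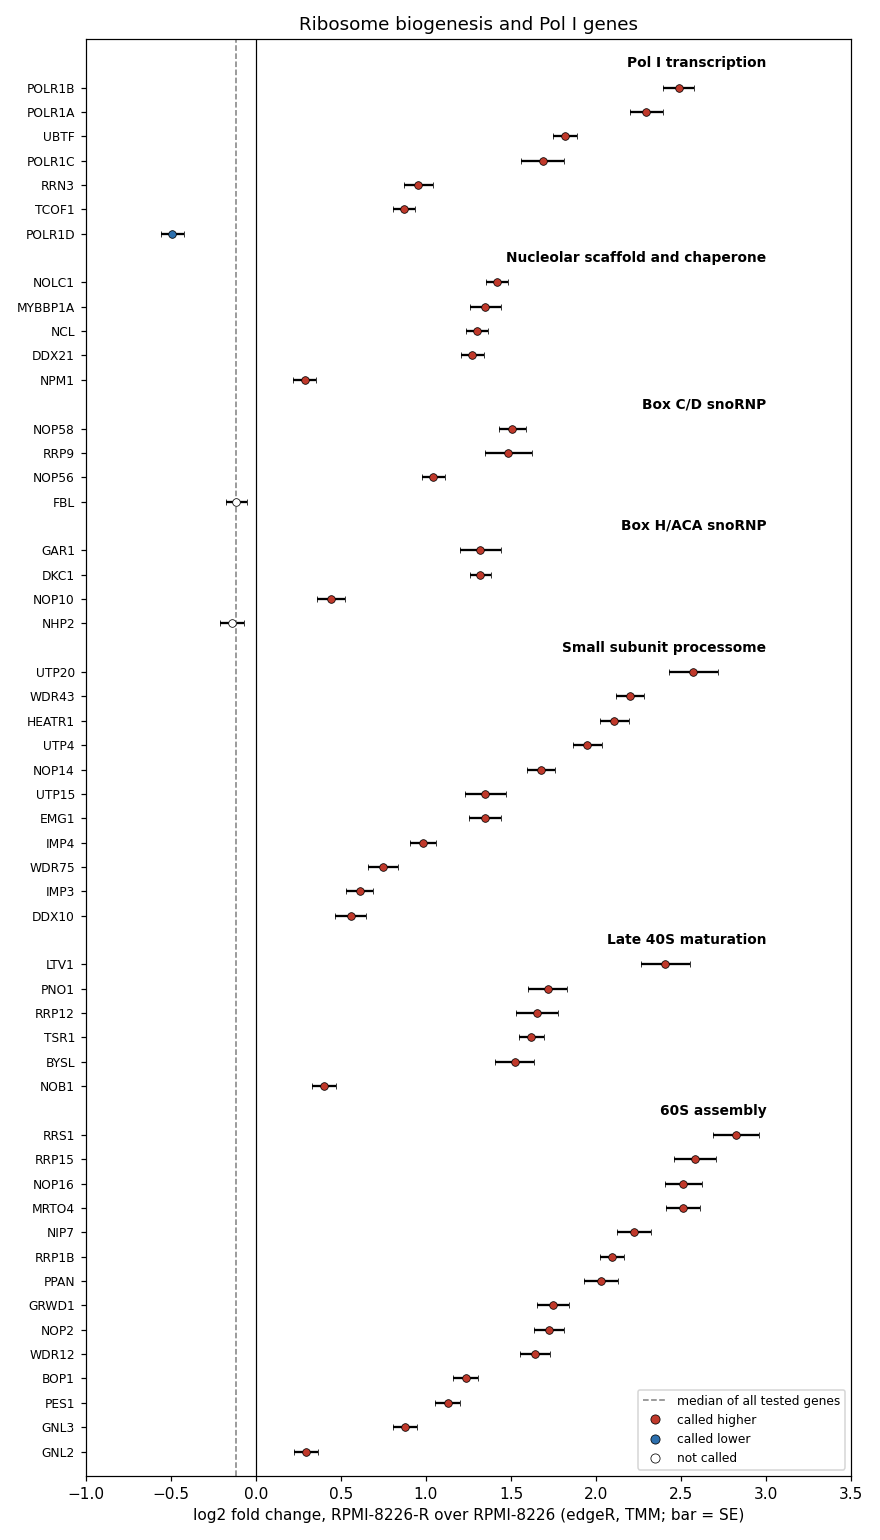
Log2 fold change of each of the 51 genes in RPMI-8226-R over RPMI-8226 (x axis; points are edgeR estimates after TMM normalisation, bars are standard errors), grouped by role. Red points are called higher, the blue point (POLR1D) lower and white points (FBL, NHP2) neither, and the dashed line marks the median of all tested genes at -0.12.

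The Pol I group carries out the transcription step. Levels are given below in TPM, which corrects for gene length, for the libraries of each line in turn, and fold changes come from the edgeR fit of TMM-normalised counts (log2 estimate ± SE). POLR1A, the largest catalytic subunit (ENSG00000068654.17, chromosome 2, 86020216 to 86106155, GRCh38), had 14.7 and 17.8 TPM in RPMI-8226-R, 2.39 and 3.43 TPM in RPMI-8226 and 7.87 and 8.39 TPM in the NCI-BL2171-labelled libraries. Its counts were 4.91-fold higher in RPMI-8226-R than in RPMI-8226 (log2 2.30 ± 0.10). POLR1B, the second-largest subunit, which completes the active site (ENSG00000125630.16, chromosome 2, 112541915 to 112577150), had 51.1 and 62.4 TPM in RPMI-8226-R, 9.21 and 7.73 TPM in RPMI-8226 and 12.3 and 11.4 TPM in the NCI-BL2171-labelled libraries, and was 5.60-fold higher (log2 2.49 ± 0.09). For both catalytic subunits the RPMI-8226-R libraries lay above all others with no overlap. UBTF, which binds and opens the ribosomal DNA repeats, had 70.2 and 86.7 TPM in RPMI-8226-R, 22.0 and 23.5 TPM in RPMI-8226 and 19.7 and 20.8 TPM in the NCI-BL2171-labelled libraries, and was 3.52-fold higher in RPMI-8226-R than in RPMI-8226 (log2 1.82 ± 0.07). RRN3, the initiation factor that brings Pol I to its promoter, had 25.9 and 28.1 TPM in RPMI-8226-R, 11.6 and 9.96 TPM in RPMI-8226 and 8.22 and 9.82 TPM in the NCI-BL2171-labelled libraries, and was 1.94-fold higher in RPMI-8226-R than in its parent (log2 0.95 ± 0.08). RRN3 has closely similar pseudogene copies, so its estimated reads are less certain.

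POLR1C and POLR1D form a pair of small subunits that Pol I shares with Pol III. POLR1C had 18.9 and 18.1 TPM in RPMI-8226-R, 4.34 and 4.86 TPM in RPMI-8226 and 15.4 and 13.9 TPM in the NCI-BL2171-labelled libraries, and was 3.22-fold higher in RPMI-8226-R than in RPMI-8226 (log2 1.69 ± 0.13). Its partner POLR1D (ENSG00000186184.20, chromosome 13, 27620742 to 27744237) had 114 and 124 TPM in RPMI-8226-R, 122 and 122 TPM in RPMI-8226 and 192 and 177 TPM in the NCI-BL2171-labelled libraries. The TPM of POLR1D overlapped between the RPMI lines, and the normalised counts were 1.41-fold lower in RPMI-8226-R (log2 -0.49 ± 0.07). On a log2(TPM + 1) scale with limma-trend that difference was -0.04 and missed the threshold. TCOF1, the nucleolar phosphoprotein treacle, which helps Pol I factors reach the repeats and is mutated in Treacher Collins syndrome, had 27.8 and 31.9 TPM in RPMI-8226-R, 13.3 and 11.3 TPM in RPMI-8226 and 32.8 and 34.5 TPM in the NCI-BL2171-labelled libraries. It was 1.83-fold higher in RPMI-8226-R than in RPMI-8226 (log2 0.87 ± 0.07), and the NCI-BL2171-labelled libraries lay above both RPMI lines.

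The nucleolar scaffold and chaperone genes hold the member with the highest TPM. NPM1, or nucleophosmin, a main protein of the granular outer part of the nucleolus, had 960.1 and 917 TPM in RPMI-8226-R, 644 and 627 TPM in RPMI-8226 and 1244 and 1394 TPM in the NCI-BL2171-labelled libraries. It ranked highest among the members by mean TPM in every line. Its counts were 1.22-fold higher in RPMI-8226-R than in RPMI-8226 (log2 0.29 ± 0.07). Processed pseudogenes of NPM1 are many, and reads could be split between them. NCL, or nucleolin, which binds the precursor RNA, had 567 and 584 TPM in RPMI-8226-R, 166 and 180.3 TPM in RPMI-8226 and 231 and 264 TPM in the NCI-BL2171-labelled libraries. That was 2.46-fold higher in RPMI-8226-R than in its parent (log2 1.30 ± 0.07). By reads NCL stood above NPM1 in RPMI-8226-R, with 30593 and 31509 against 10727 and 10070. Their mean effective lengths were 2070.2 bases for NCL and 402.4 for NPM1. NOLC1, a chaperone of small nucleolar ribonucleoproteins, had 105 and 113 TPM in RPMI-8226-R, 29.5 and 32.8 TPM in RPMI-8226 and 48.4 and 58.2 TPM in the NCI-BL2171-labelled libraries, and was 2.67-fold higher (log2 1.42 ± 0.06). MYBBP1A, a nucleolar protein that binds MYB, had 43.8 and 57.5 TPM in RPMI-8226-R, 15.5 and 15.7 TPM in RPMI-8226 and 19.2 and 22.6 TPM in the NCI-BL2171-labelled libraries, and was 2.54-fold higher (log2 1.35 ± 0.09). DDX21, a helicase that links Pol I transcription with processing, had 58.2 and 64.3 TPM in RPMI-8226-R, 20.6 and 18.9 TPM in RPMI-8226 and 95.9 and 108 TPM in the NCI-BL2171-labelled libraries, and was 2.41-fold higher in RPMI-8226-R than in RPMI-8226 (log2 1.27 ± 0.07). In NCL, NOLC1 and MYBBP1A the RPMI-8226-R libraries were the highest, and in NPM1 and DDX21 the NCI-BL2171-labelled ones were.

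Box C/D particles guide methylation of ribosomal RNA. The methyltransferase FBL, or fibrillarin, had 231 and 227 TPM in RPMI-8226-R, 194 and 195 TPM in RPMI-8226 and 483 and 484 TPM in the NCI-BL2171-labelled libraries. Its normalised counts differed by a log2 fold change of -0.11 ± 0.06 between RPMI-8226-R and RPMI-8226 and missed the threshold. On the log2(TPM + 1) scale FBL was 0.23 higher and passed. Its scaffold partner NOP56 had 195 and 194 TPM in RPMI-8226-R, 57.5 and 59.9 TPM in RPMI-8226 and 87.1 and 91.2 TPM in the NCI-BL2171-labelled libraries, and was 2.06-fold higher in RPMI-8226-R than in RPMI-8226 (log2 1.04 ± 0.07). NOP58, which pairs with NOP56 in the particle, had 91.1 and 91.0 TPM in RPMI-8226-R, 25.4 and 24.2 TPM in RPMI-8226 and 24.2 and 26.5 TPM in the NCI-BL2171-labelled libraries, and was 2.84-fold higher (log2 1.51 ± 0.08). RRP9, a protein specific to the U3 particle that directs cleavage of the precursor, had 14.1 and 14.6 TPM in RPMI-8226-R, 4.02 and 3.75 TPM in RPMI-8226 and 7.38 and 6.57 TPM in the NCI-BL2171-labelled libraries, and was 2.80-fold higher (log2 1.48 ± 0.14). For NOP56, NOP58 and RRP9 both RPMI-8226-R libraries exceeded all others, whereas FBL was highest in the NCI-BL2171-labelled libraries.

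Box H/ACA particles guide pseudouridylation and also stabilise telomerase RNA. Their catalytic subunit DKC1, or dyskerin, had 130.4 and 144 TPM in RPMI-8226-R, 36.9 and 37.0 TPM in RPMI-8226 and 69.3 and 67.3 TPM in the NCI-BL2171-labelled libraries, which made it 2.50-fold higher in RPMI-8226-R than in RPMI-8226 (log2 1.32 ± 0.06). GAR1, which helps turnover of the modified RNA, had 27.9 and 28.8 TPM in RPMI-8226-R, 8.17 and 9.79 TPM in RPMI-8226 and 41.8 and 47.3 TPM in the NCI-BL2171-labelled libraries, and was 2.50-fold higher (log2 1.32 ± 0.12). NOP10 had 169 and 159.5 TPM in RPMI-8226-R, 91.4 and 93.5 TPM in RPMI-8226 and 213 and 210.0 TPM in the NCI-BL2171-labelled libraries, and was 1.36-fold higher (log2 0.44 ± 0.08). The fourth core protein, NHP2, had 195 and 188 TPM in RPMI-8226-R, 156 and 159 TPM in RPMI-8226 and 197 and 196 TPM in the NCI-BL2171-labelled libraries. NHP2 missed the threshold at a log2 fold change of -0.14 ± 0.07, and on the log2(TPM + 1) scale it was 0.28 higher and passed. DKC1 was highest in RPMI-8226-R, and GAR1, NOP10 and NHP2 were highest in the NCI-BL2171-labelled libraries.

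Some partners of one particle differed in their proportions between RPMI-8226-R and its parent. The TPM ratio of FBL to NOP56 was 1.18 and 1.17 in RPMI-8226-R, 3.38 and 3.26 in RPMI-8226 and 5.54 and 5.31 in the NCI-BL2171-labelled libraries. The ratio of NHP2 to DKC1 was 1.50 and 1.30 in RPMI-8226-R, 4.24 and 4.30 in RPMI-8226 and 2.84 and 2.91 in the NCI-BL2171-labelled libraries. POLR1D stood at 2.23 and 1.98 times POLR1B in RPMI-8226-R, 13.3 and 15.8 times in RPMI-8226 and 15.6 and 15.5 times in the NCI-BL2171-labelled libraries. These ratios separated RPMI-8226-R from its parent without overlap. Other pairs lay closer in those lines, though still lower in both RPMI-8226-R libraries. For GAR1 over DKC1 the ratio was 0.214 and 0.200 in RPMI-8226-R, 0.222 and 0.265 in RPMI-8226 and 0.603 and 0.703 in the NCI-BL2171-labelled libraries. NOP56 over NOP58 was 2.14 in both RPMI-8226-R libraries, 2.27 and 2.48 in RPMI-8226 and 3.59 and 3.44 in the NCI-BL2171-labelled libraries. In the PES1, BOP1 and WDR12 complex of the 60S pathway, WDR12 over BOP1 was 3.41 and 3.40 in RPMI-8226-R, 2.94 and 3.30 in RPMI-8226 and 2.96 and 3.58 in the NCI-BL2171-labelled libraries. The RPMI-8226-R libraries lay above both RPMI-8226 libraries for that ratio, and between the NCI-BL2171-labelled ones. By reads BOP1 stood above WDR12 in RPMI-8226-R, with 3429 and 3577 against 2239 and 2225. Their mean effective lengths were 384.5 bases for WDR12 and 2228.5 for BOP1. PES1 over BOP1 was 1.74 and 1.52 in RPMI-8226-R, 1.65 and 1.95 in RPMI-8226 and 0.916 and 1.03 in the NCI-BL2171-labelled libraries, so that RPMI-8226-R overlapped with its parent. The pairs were chosen after their values were seen. A TPM ratio rests on the effective lengths of both genes, and it does not show which partner differed.

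**Figure D2:**
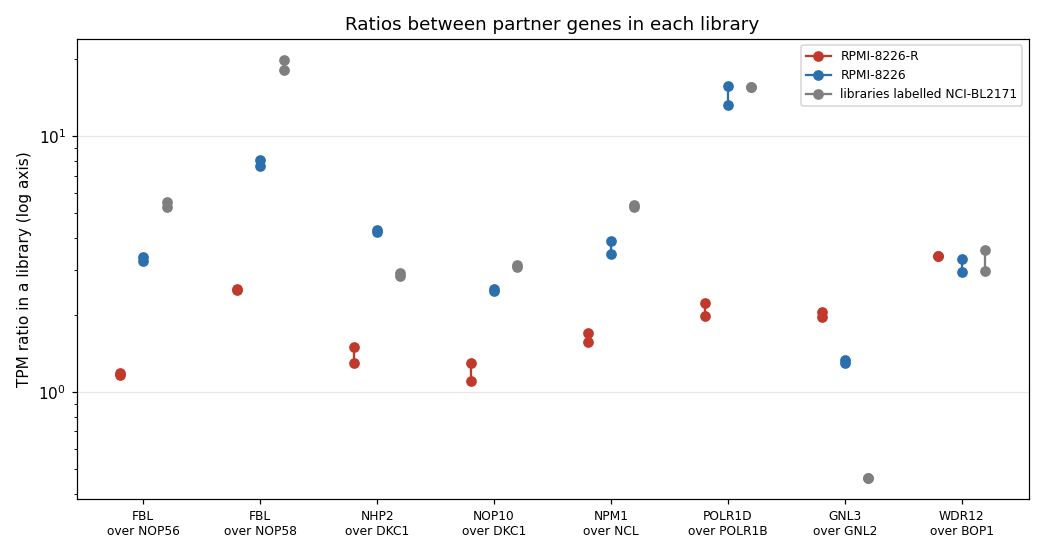
TPM ratio of partner genes in each library (y axis, log scale; points are libraries, joined within a line). RPMI-8226-R lies lowest for the pairs led by FBL, NHP2, NOP10, NPM1 and POLR1D, highest for GNL3 over GNL2, and above both RPMI-8226 libraries by a small margin for WDR12 over BOP1.

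The small subunit processome assembles on the precursor RNA and releases the 18S part. All 11 of its members were called higher in RPMI-8226-R than in RPMI-8226, against 28.5% of all tested genes, with a median log2 fold change of 1.35. Nothing is read from this count, since the members were chosen with these differences known. UTP20, a very large scaffold protein (ENSG00000120800.5, chromosome 12, 101280109 to 101386616), had 3.59 and 4.98 TPM in RPMI-8226-R, 0.433 and 0.346 TPM in RPMI-8226 and 1.42 and 1.37 TPM in the NCI-BL2171-labelled libraries. It was the lowest of all members by TPM, and its normalised counts were 5.95-fold higher in RPMI-8226-R than in its parent (log2 2.57 ± 0.14). WDR43, HEATR1, UTP4, UTP15 and WDR75 belong to the subcomplex that binds the nascent RNA first. WDR43 had 40.6 and 37.5 TPM in RPMI-8226-R, 7.55 and 6.09 TPM in RPMI-8226 and 9.93 and 11.2 TPM in the NCI-BL2171-labelled libraries, and was 4.59-fold higher (log2 2.20 ± 0.08). HEATR1 had 19.9 and 23.7 TPM in RPMI-8226-R, 3.09 and 2.62 TPM in RPMI-8226 and 10.8 and 10.3 TPM in the NCI-BL2171-labelled libraries, and was 4.30-fold higher (log2 2.11 ± 0.08). These and UTP20 were highest in RPMI-8226-R and lowest in RPMI-8226. UTP4, also known as cirhin, had 65.9 and 59.7 TPM in RPMI-8226-R, 12.2 and 11.9 TPM in RPMI-8226 and 10.3 and 13.8 TPM in the NCI-BL2171-labelled libraries, and was 3.86-fold higher (log2 1.95 ± 0.09). UTP15 had 15.6 and 17.3 TPM in RPMI-8226-R, 7.38 and 6.58 TPM in RPMI-8226 and 2.29 and 4.68 TPM in the NCI-BL2171-labelled libraries, and was 2.55-fold higher (log2 1.35 ± 0.12). WDR75 had 32.1 and 35.1 TPM in RPMI-8226-R, 11.1 and 20.0 TPM in RPMI-8226 and 17.8 and 25.8 TPM in the NCI-BL2171-labelled libraries, and was 1.68-fold higher (log2 0.75 ± 0.09). UTP4 and WDR75 overlapped between RPMI-8226 and the NCI-BL2171-labelled libraries.

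The remaining processome members act around the U3 RNA and the 18S head. NOP14, a scaffold protein, had 18.9 and 19.4 TPM in RPMI-8226-R, 4.55 and 4.58 TPM in RPMI-8226 and 16.0 and 17.0 TPM in the NCI-BL2171-labelled libraries, and was 3.20-fold higher in RPMI-8226-R than in RPMI-8226 (log2 1.68 ± 0.08). EMG1, a methyltransferase that modifies a pseudouridine of 18S RNA, had 73.4 and 59.1 TPM in RPMI-8226-R, 23.9 and 22.1 TPM in RPMI-8226 and 19.9 and 21.7 TPM in the NCI-BL2171-labelled libraries, and was 2.54-fold higher (log2 1.35 ± 0.10). IMP4, a U3-associated protein, had 126 and 134 TPM in RPMI-8226-R, 49.5 and 54.9 TPM in RPMI-8226 and 66.7 and 67.1 TPM in the NCI-BL2171-labelled libraries, and was 1.98-fold higher (log2 0.98 ± 0.08). For NOP14, EMG1 and IMP4 no RPMI-8226-R library overlapped with another line. IMP3, which works beside IMP4, had 152 and 138 TPM in RPMI-8226-R, 69.9 and 74.7 TPM in RPMI-8226 and 40.5 and 38.4 TPM in the NCI-BL2171-labelled libraries, and was 1.53-fold higher (log2 0.61 ± 0.08). DDX10, an RNA helicase, had 47.2 and 53.8 TPM in RPMI-8226-R, 27.0 and 27.6 TPM in RPMI-8226 and 25.1 and 28.9 TPM in the NCI-BL2171-labelled libraries, and was 1.47-fold higher, the smallest fold of the processome members (log2 0.56 ± 0.09). RPMI-8226 and the NCI-BL2171-labelled libraries overlapped in DDX10, and both lay below RPMI-8226-R.

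Late 40S factors finish the small subunit on its way to the cytoplasm. All 6 were called higher in RPMI-8226-R than in RPMI-8226, against 28.5% of all tested genes, with a median log2 fold change of 1.64. LTV1, which helps the 40S precursor leave the nucleus, had 16.4 and 14.6 TPM in RPMI-8226-R, 2.31 and 2.22 TPM in RPMI-8226 and 10.2 and 12.0 TPM in the NCI-BL2171-labelled libraries, and was 5.30-fold higher (log2 2.41 ± 0.14). PNO1, the RNA-binding partner of the endonuclease NOB1, had 27.7 and 27.0 TPM in RPMI-8226-R, 6.79 and 7.67 TPM in RPMI-8226 and 18.3 and 17.1 TPM in the NCI-BL2171-labelled libraries, and was 3.28-fold higher (log2 1.72 ± 0.11). NOB1, which makes the final cut of 18S RNA, had 116 and 114 TPM in RPMI-8226-R, 65.6 and 62.7 TPM in RPMI-8226 and 92.0 and 90.6 TPM in the NCI-BL2171-labelled libraries, and was 1.32-fold higher (log2 0.40 ± 0.07). PNO1 and NOB1, partners on the same precursor, differed in the size of the change. RRP12, an export factor, had 25.7 and 26.7 TPM in RPMI-8226-R, 5.96 and 6.96 TPM in RPMI-8226 and 15.9 and 14.7 TPM in the NCI-BL2171-labelled libraries, and was 3.15-fold higher (log2 1.65 ± 0.12). TSR1, a GTPase-like factor that guards the cytoplasmic precursor, had 30.0 and 34.7 TPM in RPMI-8226-R, 8.22 and 8.45 TPM in RPMI-8226 and 16.8 and 19.6 TPM in the NCI-BL2171-labelled libraries, and was 3.07-fold higher (log2 1.62 ± 0.08). BYSL, or bystin, a 40S assembly factor, had 29.7 and 28.3 TPM in RPMI-8226-R, 6.29 and 7.09 TPM in RPMI-8226 and 18.5 and 19.7 TPM in the NCI-BL2171-labelled libraries, and was 2.87-fold higher (log2 1.52 ± 0.11). In all 6 genes the order of levels was RPMI-8226-R, then the NCI-BL2171-labelled libraries, then RPMI-8226, with no overlap. Of all tested genes 9.1% had that order, and nothing is read from the counts of these chosen members.

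The 60S assembly genes had the largest median log2 fold change of the roles, 1.89. All 14 were called higher in RPMI-8226-R than in RPMI-8226, against 28.5% of all tested genes, and nothing is read from this count. RRS1, which brings the 5S particle into the large subunit, had 24.9 and 24.9 TPM in RPMI-8226-R, 3.16 and 2.24 TPM in RPMI-8226 and 7.16 and 8.28 TPM in the NCI-BL2171-labelled libraries. It was 7.06-fold higher, the largest fold of all members (log2 2.82 ± 0.14). RRP15, a factor of early large subunit precursors, had 19.6 and 22.1 TPM in RPMI-8226-R, 2.52 and 2.17 TPM in RPMI-8226 and 5.93 and 7.42 TPM in the NCI-BL2171-labelled libraries, and was 5.98-fold higher (log2 2.58 ± 0.12). NOP16, a nucleolar 60S factor, had 65.1 and 65.7 TPM in RPMI-8226-R, 7.69 and 9.10 TPM in RPMI-8226 and 38.8 and 42.3 TPM in the NCI-BL2171-labelled libraries, and was 5.71-fold higher (log2 2.51 ± 0.11). For these 3 genes the RPMI-8226 libraries were the lowest and the RPMI-8226-R libraries the highest. MRTO4, which holds the place of the stalk protein P0 on the precursor, had 53.0 and 50.9 TPM in RPMI-8226-R, 6.60 and 7.30 TPM in RPMI-8226 and 22.7 and 25.3 TPM in the NCI-BL2171-labelled libraries, and was 5.70-fold higher (log2 2.51 ± 0.10). NIP7, an RNA-binding 60S factor, had 84.1 and 81.6 TPM in RPMI-8226-R, 12.98 and 16.0 TPM in RPMI-8226 and 26.4 and 29.2 TPM in the NCI-BL2171-labelled libraries, and was 4.66-fold higher (log2 2.22 ± 0.10). RRP1B, a nucleolar chromatin-associated protein, had 48.4 and 54.9 TPM in RPMI-8226-R, 9.27 and 9.38 TPM in RPMI-8226 and 11.9 and 12.7 TPM in the NCI-BL2171-labelled libraries, and was 4.27-fold higher (log2 2.09 ± 0.07). MRTO4, NIP7 and RRP1B showed the same order of lines as RRS1. PPAN, related to the yeast factor Ssf1, had 69.8 and 62.2 TPM in RPMI-8226-R, 13.9 and 11.6 TPM in RPMI-8226 and 12.1 and 12.5 TPM in the NCI-BL2171-labelled libraries, and was 4.08-fold higher (log2 2.03 ± 0.10). PPAN shares exons with the annotated read-through gene PPAN-P2RY11, so the split of its reads is uncertain.

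Other 60S members differed less. NOP2, a cytosine methyltransferase of 28S RNA, had 57.0 and 59.8 TPM in RPMI-8226-R, 13.8 and 14.3 TPM in RPMI-8226 and 16.5 and 15.1 TPM in the NCI-BL2171-labelled libraries, and was 3.31-fold higher in RPMI-8226-R than in RPMI-8226 (log2 1.72 ± 0.09). GRWD1, a chaperone of ribosomal protein L3, had 38.1 and 38.8 TPM in RPMI-8226-R, 6.24 and 8.26 TPM in RPMI-8226 and 15.8 and 12.8 TPM in the NCI-BL2171-labelled libraries, and was 3.36-fold higher (log2 1.75 ± 0.09). PES1, BOP1 and WDR12 form one complex needed for maturation of 28S and 5.8S RNA. WDR12 had 199 and 208 TPM in RPMI-8226-R, 59.0 and 62.2 TPM in RPMI-8226 and 114 and 124 TPM in the NCI-BL2171-labelled libraries, and was 3.12-fold higher (log2 1.64 ± 0.09). BOP1 had 58.5 and 61.2 TPM in RPMI-8226-R, 20.0 and 18.9 TPM in RPMI-8226 and 38.5 and 34.7 TPM in the NCI-BL2171-labelled libraries, and was 2.35-fold higher (log2 1.23 ± 0.07). PES1 had 102 and 93.1 TPM in RPMI-8226-R, 33.1 and 36.8 TPM in RPMI-8226 and 35.2 and 35.8 TPM in the NCI-BL2171-labelled libraries, and was 2.18-fold higher (log2 1.13 ± 0.07). In each of these 5 genes both RPMI-8226-R libraries exceeded all others. The GTPases GNL3, or nucleostemin, and GNL2 parted ways across the lines. GNL3 had 259 and 257 TPM in RPMI-8226-R, 114 and 116 TPM in RPMI-8226 and 80.7 and 85.3 TPM in the NCI-BL2171-labelled libraries, and was 1.83-fold higher in RPMI-8226-R than in RPMI-8226 (log2 0.88 ± 0.07). GNL2 had 133 and 125 TPM in RPMI-8226-R, 85.9 and 89.4 TPM in RPMI-8226 and 176 and 185 TPM in the NCI-BL2171-labelled libraries, and was 1.23-fold higher (log2 0.29 ± 0.07). GNL3 was lowest and GNL2 highest in the NCI-BL2171-labelled libraries.

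**Figure D3:**
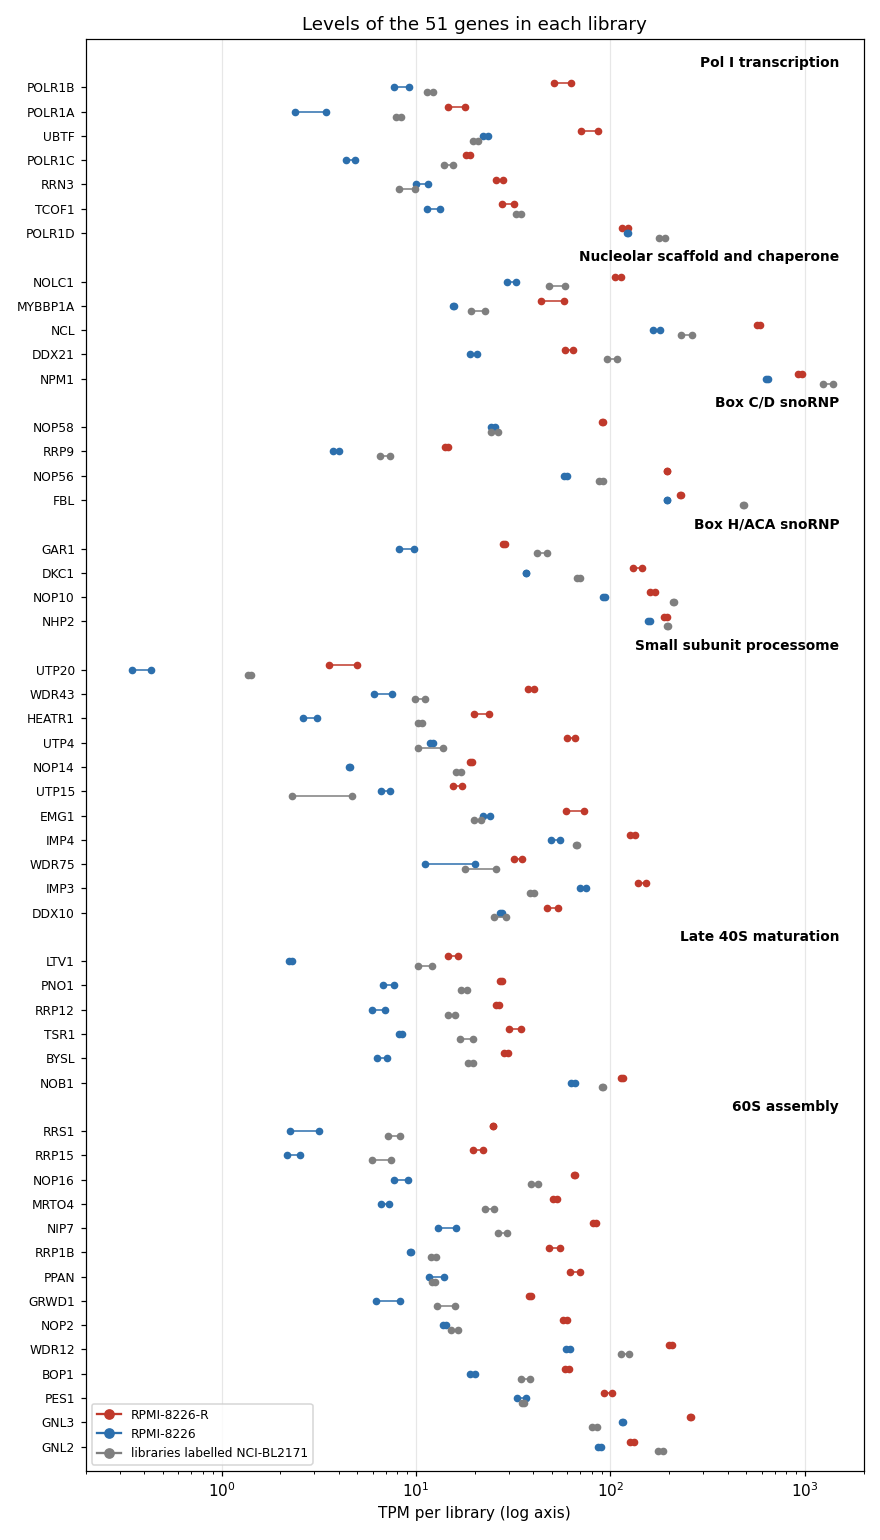
TPM of each gene in each library (x axis, log scale; points are libraries, joined within a line), grouped by role. The RPMI-8226-R points lie right of all others for 42 of the 51 genes, against 29.4% of all tested genes, and the RPMI-8226 points left of all others for 38, against 24.1%, and nothing is read from these counts.

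Across the 3 lines, 30 of the 51 members had the order RPMI-8226-R, NCI-BL2171-labelled, RPMI-8226 from high to low TPM with no overlap between lines, as did 9.1% of all 20081 tested genes. In 8 members the NCI-BL2171-labelled libraries were highest and RPMI-8226 lowest, an order that 10.2% of the tested genes had. These were TCOF1, NPM1, DDX21, FBL, NHP2, NOP10, GAR1 and GNL2. In 6 members, UBTF, RRN3, UTP15, IMP3, EMG1 and GNL3, the NCI-BL2171-labelled libraries were lowest and RPMI-8226-R highest, against 14.6% of the tested genes with that order. Nothing is read from these counts, since the members were chosen with their differences between the lines known. At least one pair of lines overlapped in the other 7. Some orders depended on the unit. By TMM-normalised counts POLR1D, FBL and NHP2 were lowest in RPMI-8226-R, with no overlap between lines. The mean TPM was at least 10 in 50 members in RPMI-8226-R, in 30 members in RPMI-8226 and in 44 members in the NCI-BL2171-labelled libraries.

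RPMI-8226-R and the NCI-BL2171-labelled libraries differed less. Of the 51 members, 40 were called higher in RPMI-8226-R, against 39.2% of all tested genes, and 9 were called lower, against 38.2% of all tested genes. The median log2 fold change was 0.87 for members and 0.00 for all tested genes, and again nothing is read from these shares. UTP15 was 5.71-fold higher (log2 2.51 ± 0.13) and POLR1B 5.71-fold higher (log2 2.51 ± 0.09). PPAN followed at 5.46-fold, UTP4 at 4.33-fold and UBTF at 4.29-fold. At the other end FBL was 2.34-fold lower (log2 -1.23 ± 0.06) and DDX21 1.85-fold lower (log2 -0.89 ± 0.07). GAR1 was 1.73-fold, POLR1D 1.73-fold and NPM1 1.48-fold lower in RPMI-8226-R. NOP14 (log2 0.06 ± 0.08) and NOB1 (log2 0.10 ± 0.07) missed the threshold. The late 40S genes, with large differences between the RPMI lines, had a median of 0.40 here, and the small subunit processome genes had one of 1.35. Because these libraries carry red cell markers, a difference from them cannot be told apart from a difference of cell lineage.

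The parental line was set beside the NCI-BL2171-labelled libraries in the same way. Between RPMI-8226 and the NCI-BL2171-labelled libraries 8 members were called higher in RPMI-8226, against 41.1% of all tested genes, and 37 were called lower, against 35.6% of all tested genes. The median log2 fold change was -0.61 for members and 0.09 for all tested genes, and nothing is read from these shares either. DDX21 was 4.46-fold lower in RPMI-8226 (log2 -2.16 ± 0.07), GAR1 4.33-fold, LTV1 4.21-fold, NOP16 4.14-fold and MRTO4 3.14-fold lower. UTP15 was 2.24-fold higher (log2 1.17 ± 0.14), IMP3 2.13-fold, GNL3 1.60-fold, RRN3 1.46-fold and PPAN 1.34-fold higher. On the log2(TPM + 1) scale RRN3, PPAN, EMG1, DDX10 and UBTF missed the threshold and 3 members were called higher. The 3 comparisons share libraries, so their values stand side by side here and do not support each other.

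Other genes of the pathway were listed by function, with earlier results of these data known. Of 141 such genes 140 were matched and tested. In RPMI-8226-R against RPMI-8226, 105 rose, against 28.5% of all tested genes, and 13 fell, against 37.2%. The other 22 did not pass the test, and the median log2 fold change was 0.71, below that of the members. The same shares stand beside the counts of the smaller lists below, and nothing is read from these counts. Other small subunit processome and 40S factors gave 39 rises and 3 falls among 44 genes, with a median of 0.87. Other 60S factors gave 40 rises and 6 falls among 50 genes, with a median of 0.89. Among 8 genes of snoRNP assembly 5 rose and 3 did not pass the test, and among 23 genes of the RNA exosome and RNase MRP 14 rose and 3 fell. Of the 15 other Pol I subunits and factors 7 rose and 1 fell. Of those 15, the small subunits shared with Pol II and Pol III, chosen here after their values were seen, 4 of 5 did not pass the test. Their log2 fold changes were -0.04 ± 0.07 for POLR2E, 0.03 ± 0.07 for POLR2H, -0.03 ± 0.08 for POLR2K and -0.16 ± 0.08 for POLR2L, none past the threshold, and 0.34 ± 0.09 for POLR2F, which rose.

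POLR1G, a Pol I subunit that works with the initiation machinery, had 17.2 and 18.2 TPM in RPMI-8226-R, against 3.12 and 3.39 TPM in RPMI-8226, and rose 4.68-fold (log2 2.23 ± 0.12; edgeR adjusted p = 5.5e-13). URB2 and URB1, large nucleolar proteins of the 60S pathway, rose 5.97-fold (edgeR adjusted p = 8.4e-15) and 4.73-fold (edgeR adjusted p = 6.2e-15). URB2 had 13.2 and 13.7 TPM in RPMI-8226-R, against 1.55 and 1.69 TPM in RPMI-8226. POP1, the largest protein of RNase P and RNase MRP, had 8.38 and 8.87 TPM in RPMI-8226-R, against 2.03 and 1.24 TPM in RPMI-8226, and rose 5.06-fold (edgeR adjusted p = 5.6e-11). NOL6, a processome protein, rose 4.99-fold (edgeR adjusted p = 4.5e-14). The libraries of the RPMI lines did not overlap in any of these genes. RIOK3, a kinase that acts on late 40S particles, had 40.2 and 45.6 TPM in RPMI-8226-R, against 82.2 and 88.1 TPM in RPMI-8226, and fell 2.59-fold (log2 -1.37 ± 0.07; edgeR adjusted p = 3.0e-13). NOP53, a 60S factor, had 71.8 and 74.6 TPM in RPMI-8226-R, against 95.3 and 88.7 TPM in RPMI-8226, and fell 1.70-fold (edgeR adjusted p = 1.1e-09). TRMT112, an activator of several methyltransferases, fell 1.58-fold (edgeR adjusted p = 8.0e-08), RPP25 of RNase P fell 1.51-fold (edgeR adjusted p = 7.7e-05), and TAF1D of the Pol I promoter factor fell 1.50-fold (edgeR adjusted p = 2.6e-07). The fall of RPP25 was not called on the log2(TPM + 1) scale, at -0.19.

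Against the NCI-BL2171-labelled libraries 74 of the 140 other genes rose in RPMI-8226-R, against 39.2% of all tested genes. In the same comparison 40 fell, against 38.2%, and the median was 0.23. URB2 rose 5.95-fold (edgeR adjusted p = 2.0e-15) and the exosome subunit EXOSC4 4.66-fold (edgeR adjusted p = 6.0e-13). SPATA5, an ATPase of the 60S pathway, had 1.71 and 2.20 TPM in RPMI-8226-R, against 10.4 and 11.4 TPM in the NCI-BL2171-labelled libraries, and fell 4.13-fold (edgeR adjusted p = 1.8e-12). RCL1, a processome protein, fell 3.04-fold (edgeR adjusted p = 6.8e-12). In RPMI-8226 against the NCI-BL2171-labelled libraries 29 of the 140 rose, against 41.1% of all tested genes, and 85 fell, against 35.6%. The median was -0.35, and nothing is read from these counts. RPP25 rose 5.20-fold (edgeR adjusted p = 7.2e-13) and the 60S factor NSA2 2.60-fold (edgeR adjusted p = 9.3e-13). RCL1 fell 5.45-fold (edgeR adjusted p = 1.7e-14) and SPATA5 4.90-fold (edgeR adjusted p = 4.4e-13).

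Genes of the ribosome itself were lower. Of 77 cytosolic ribosomal protein mRNAs, 76 fell in RPMI-8226-R relative to RPMI-8226, against 37.2% of all tested genes, and 1 did not pass the test. The median log2 fold change was -0.76, or -0.38 as a difference of log2(TPM + 1). The summed level of these 77 was 68870 to 70990 TPM in RPMI-8226-R, 89400 to 90160 TPM in RPMI-8226 and 97370 to 100100 TPM in the NCI-BL2171-labelled libraries. The members' median stood above that of all genes, and the ribosomal proteins' median below it. A list of 13 proliferation genes had 5 rises, against 28.5% of all tested genes, and 4 falls, against 37.2%, with a median of 0.07.

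**Figure D4:**
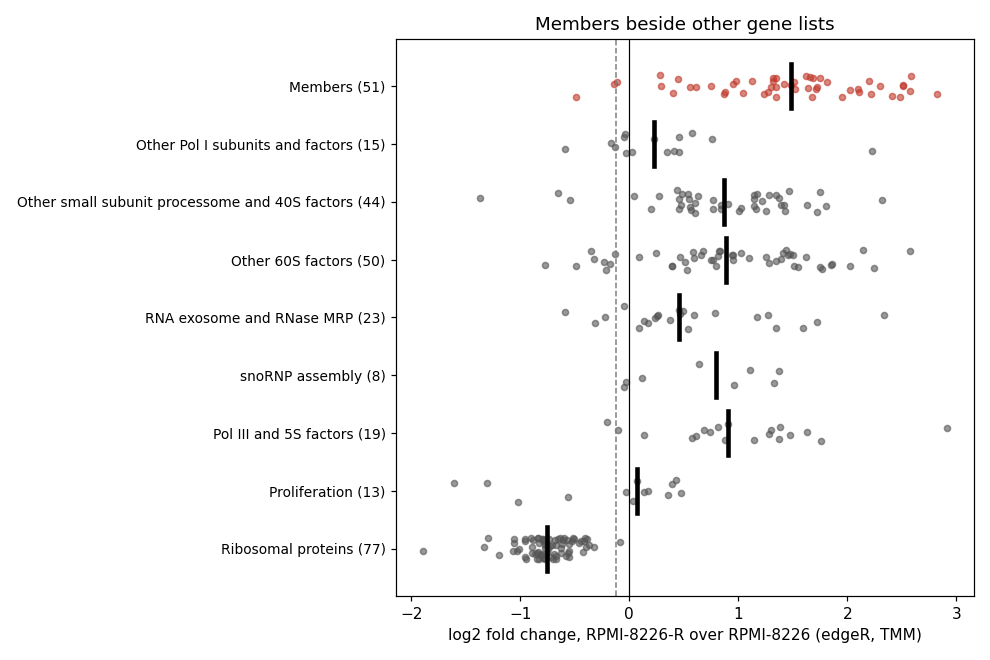
Log2 fold change in RPMI-8226-R over RPMI-8226 (x axis) for each gene of the member set and of other lists (points are genes, the number tested is in brackets; black bars are medians; the dashed line is the median of all tested genes). The member median is 1.48, other processome and 60S lists lie near 0.87 to 0.89, and ribosomal proteins lie at -0.76.

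Known regulators of the pathway were measured beside it. MYC, which binds E-box sequences, had 576 and 639 TPM in RPMI-8226-R, 97.9 and 99.5 TPM in RPMI-8226 and 105 and 97.0 TPM in the NCI-BL2171-labelled libraries. It rose 4.82-fold in RPMI-8226-R over RPMI-8226 (log2 2.27 ± 0.06; edgeR adjusted p = 3.0e-17), and RPMI-8226 and the NCI-BL2171-labelled libraries overlapped. MXD4, a repressor that competes for the MYC partner MAX, had 11.6 and 10.6 TPM in RPMI-8226-R, against 18.1 and 18.6 TPM in RPMI-8226, and fell 1.83-fold (edgeR adjusted p = 1.8e-08). RPL5 and RPL11 bind the ubiquitin ligase MDM2 when ribosome assembly is disturbed. RPL11 had 1264 and 1220.0 TPM in RPMI-8226-R, against 2403 and 2245 TPM in RPMI-8226, and fell 2.45-fold (edgeR adjusted p = 5.0e-13). RPL5 had 686 and 682 TPM in RPMI-8226-R, against 721 and 695 TPM in RPMI-8226, and fell 1.31-fold (edgeR adjusted p = 8.0e-06), a call that was lost on the log2(TPM + 1) scale, at -0.05. MDM2 had 19.5 and 16.1 TPM in RPMI-8226-R, against 11.7 and 9.55 TPM in RPMI-8226, and rose 1.67-fold (edgeR adjusted p = 1.9e-07), a call that an effective-length offset removed, at 0.42. CDKN2A, whose ARF product restrains MDM2, had 288 and 279 TPM in RPMI-8226-R, against 244 and 249 TPM in RPMI-8226, with a log2 difference in normalised counts of -0.18 ± 0.07 (edgeR adjusted p = 0.026), with a sign that reversed on the log2(TPM + 1) scale, at 0.20. The part of MYC in the levels of the members was not tested.

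Promoter sequences were read for the E-box CACGTG, which MYC binds. RefSeq promoters (GRCh38.p14) were matched for 44 of the 51 members, and CACGTG, which reads the same on both strands, lay within 250 bases before the start in 4 of them, or 9.09%. The same window held it in 8.79% of 11136 tested protein-coding genes and 6.49% of 27305 genes with a promoter. A match is a description of letters and not a binding site. The 4 windows show it in place and are 60 bases long, 5′ to 3′ on the strand of the gene, with the CACGTG nearest the start in capitals. It begins 203 bases before the start in IMP4, 10 in UTP20, 11 in NOP10 and 16 in UTP4, and NOP10 has 2 matches in all. Starts are those of RefSeq, and for 34 of the 44 promoters the bases after the start opened a GENCODE transcript. The IMP4 and UTP4 windows lie inside the GENCODE spans of those genes, which start at 130342225 and 69131291. The NOP10 window crosses position 34343177, where the GENCODE span of this minus-strand gene begins. Its capitals also lie inside that span.
IMP4, chr2:130342667-130342726, plus strand: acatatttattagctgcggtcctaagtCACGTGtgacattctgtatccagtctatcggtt
UTP20, chr12:101280045-101280104, plus strand: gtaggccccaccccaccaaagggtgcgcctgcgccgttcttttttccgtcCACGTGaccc
NOP10, chr15:34343137-34343196, minus strand: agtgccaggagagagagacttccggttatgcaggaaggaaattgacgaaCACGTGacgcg
UTP4, chr16:69132589-69132648, plus strand: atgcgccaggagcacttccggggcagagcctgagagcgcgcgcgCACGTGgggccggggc
The 4 genes differed widely in RPMI-8226-R against RPMI-8226, with log2 fold changes from 0.44 for NOP10 to 2.57 for UTP20. Their median was 1.47, and that of the 40 members without the motif was 1.42.

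The members are spread over the genome. They lie on 19 chromosomes, with at most 9 on one, chromosome 2, where their median log2 fold change in RPMI-8226-R over RPMI-8226 was 1.64 against 0.00 for 901 protein-coding genes. For 50 members at least 5 tested protein-coding genes lay within 1 Mb, and 46 of the 50 stood above the median of those neighbours. Of 12902 tested protein-coding genes with as many neighbours, 50.1% did, and nothing is read from the members' share, since the rule used this contrast. The neighbour medians ran from -2.29 at HEATR1 to 1.07 at NPM1, with a median of -0.06. POLR1D, NPM1, FBL and NOB1 did not exceed their neighbours, and RRP15 had too few. Copy number was not measured in these files.

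**Figure D5:**
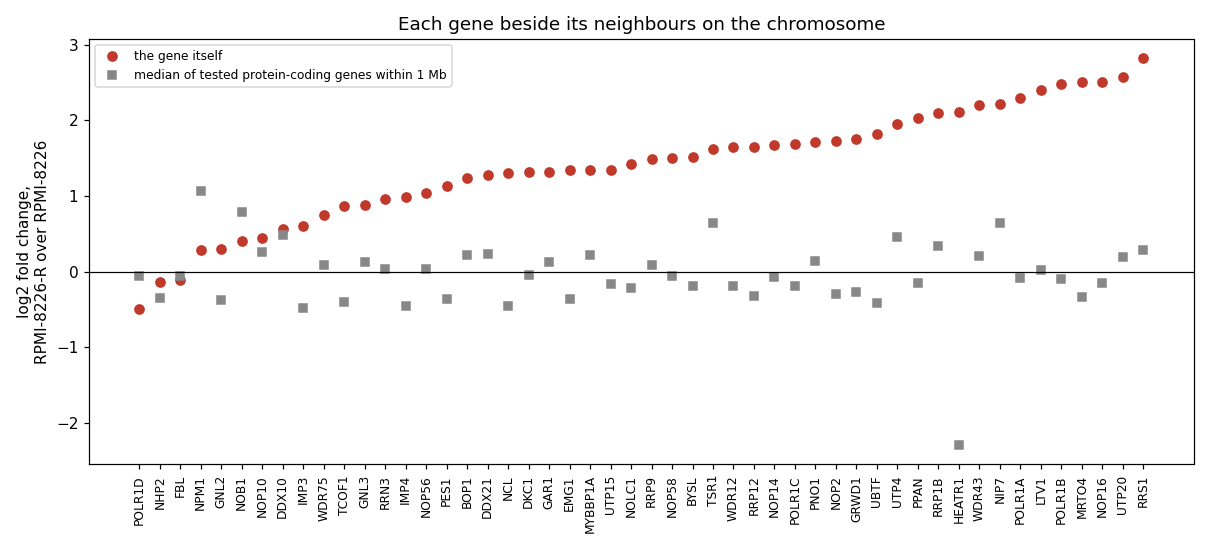
Log2 fold change in RPMI-8226-R over RPMI-8226 (y axis) of each gene (circles, in rising order) and the median of the tested protein-coding genes within 1 Mb of it (squares), for 50 genes. The squares scatter around zero with a median of -0.06, while 46 of the circles lie above their square, against 50.1% of all tested protein-coding genes set against their own neighbours.

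Other features of the members were compared with the same differences. Among short genes, the lowest of 3 equal classes of effective length, 22 members had a median log2 fold change of 1.01 and all protein-coding genes -0.18. In the middle class the medians were 1.67 for 18 members and -0.09 for all, and in the long class 1.68 for 11 members and 0.09 for all. Introns or exons of 9 members hold 28 annotated small nucleolar RNA genes, among them NOP56, NOP58, GNL3 and NCL. These 9 host genes had a median of 1.51 and the other members one of 1.45. Exons of 10 members overlap an annotated gene on the same strand and those of 22 one on the opposite strand, and whether the counting used strand is not given in the sources used here. For the 21 members with no such overlap the median was 1.32. Of these, 19 were called higher, against 28.5% of all tested genes, and nothing is read from this count.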

How the data were processed

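RNA-seq tables of 6 libraries, 2 for each of 3 cell lines, were used, and the groups follow the labels' cell line. Per the file headers, the authors deposited for each gene a length and an effective length in bases (another unit), TPM and an estimated count of reads. The deposited estimated counts need not be whole and were rounded. The deposited TPM values were taken as given for levels. Per the submitters' processing notes the reads were processed on GRCh38.p13. What quantifier, annotation and strand setting were used is not given in the sources used here. Gene positions are from GENCODE 29 (GRCh38).

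Copies of 46 pseudoautosomal genes (88666 reads) were added to their partners, leaving 61498 genes, and all 51 members matched by symbol. Testing used edgeR 4.0.16 (R 4.3.3) with TMM scaling. filterByExpr kept genes by line at a count of 10 and a total of 15, and a two-sided robust quasi-likelihood F test was run on 6 libraries (3 residual degrees of freedom), adjusted by Benjamini-Hochberg over 20081 genes at 0.05. The common coefficient of variation was 6.81%. The libraries of a line differed beyond sampling noise, with chi-square values per gene of 10.6 in RPMI-8226-R, 3.41 in RPMI-8226 and 5.33 in the NCI-BL2171-labelled libraries. The procedure was tested on simulated data.

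The members and the lists were chosen with earlier results of these data known. Per-library values were given for preset members, the 2 largest changes per role, members at least 2-fold apart or called lower, and most others. In the comparisons with NCI-BL2171 the 5 members largest each way were named. Of the other pathway genes, the 5 largest changes each way with at least 5 TPM in the higher line were named, and 2 each way against NCI-BL2171. One gene that the naming rule takes is not reported here. Alternatives were upper-quartile scaling, the size factors of DESeq2 1.42.0, the DESeq2 Wald test, limma 3.58.1 (voom, and trend on log2(TPM + 1)), no count filter, an offset for effective length, only the 2 lines compared, a replicate block and each library left out.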

Additional observations from a re-analysis of the deposited data

How the results depend on the processing

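The count of members higher in RPMI-8226-R than in RPMI-8226 kept within 1.5 times of 48 under every alternative run, while the count lower was 3 with upper-quartile scaling, 0 on the log2(TPM + 1) scale, and 1 to 3 with a library left out. The median log2 fold change of the members there was 1.74 on the log2(TPM + 1) scale. That scale moved the median of all genes from -0.12 to 0.08, a shift of 0.20, and relative to that median the members stood at 1.66 and at 1.60 in the count fit. The share of higher among called genes was 60.7% on it and 43.4% in the count fit. For the other pathway genes in the same comparison it gave 4 lower and a median of 1.00. Against NCI-BL2171, RPMI-8226-R had a member median of 0.98 and 0.38 for the other genes on that scale. For RPMI-8226 against NCI-BL2171 it gave 3 members higher, a member median of -0.79, and 15 other genes higher with a median of -0.55. The effective-length offset gave 5 members higher there.

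Some single values near zero changed sign. In RPMI-8226-R against RPMI-8226 the log2(TPM + 1) scale gave FBL 0.23, NHP2 0.28 and CDKN2A 0.20. In RPMI-8226-R against NCI-BL2171, NOP14 was -0.0087 with upper-quartile scaling. In RPMI-8226 against NCI-BL2171, POLR1B was -0.0199 with DESeq2 size factors and -0.0191 with its Wald test, -0.44 on the log2(TPM + 1) scale, -0.28 with the length offset and -0.11 to 0.17 with a library left out. NOP58 was -0.0338 and PES1 -0.0249 on the log2(TPM + 1) scale, and NOP2 was 0.0356 with the length offset. The causes were not tested.

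With the replicate number as a covariate (replicate block), 48 members were higher and 1 lower in RPMI-8226-R against RPMI-8226, with a median of 1.49. Deviations of same-numbered libraries correlated at 0.0129, -0.00351 and 0.0327 between lines, so no pairing by number was seen. Low correlations cannot exclude a pairing, since noise in the counts of all tested genes also lowers them. With 2 libraries per line the spread is estimated from 3 residual degrees of freedom, and values of members with few reads rest on as few as 97.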

Other observations

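Genes of RNA polymerase III, which makes the remaining ribosomal RNA, and of its factors and regulators were counted beside the members. Of 19 tested genes 16 rose in RPMI-8226-R against RPMI-8226 (edgeR, adjusted p under 0.05), against 28.5% of all tested genes. In that comparison 1 fell, against 37.2%, with log2 fold changes from -0.20 to 2.92 and a median of 0.91. Against the NCI-BL2171-labelled libraries 13 rose in RPMI-8226-R, against 39.2% of all tested genes, and 4 fell, against 38.2%, with a median of 0.55. In RPMI-8226 against those libraries 2 rose, against 41.1% of all tested genes, and 13 fell, against 35.6%, with a median of -0.36.

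The RNA components of the processing enzymes were few in these ribosomal RNA-depleted libraries. RMRP, the RNA of RNase MRP, was listed at 0 in both RPMI-8226-R libraries, at 11.7 and 15.1 TPM in RPMI-8226, and at 0 in both NCI-BL2171-labelled libraries. TERC, the RNA of telomerase, was listed at 0 in all 6 libraries. RPPH1, the RNA of RNase P, had 8.90 and 3.02 TPM in RPMI-8226-R, 6.25 and 7.75 TPM in RPMI-8226 and 3.58 and 5.63 TPM in the NCI-BL2171-labelled libraries, and the lines overlapped. The 5.8S genes RNA5-8SN1, RNA5-8SN2 and RNA5-8SN3 lay between 0 and 5.52 TPM in every library. An exact 0 in such tables can be a failed estimate, and no difference is read from these genes.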
